A study of Mus musculus with 8 samples.

Results

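Expression of the epidermal growth factor (EGF) receptor family was followed in whole mouse liver through 10 genes chosen by name. The set holds 3 receptors (Egfr, Erbb2 and Erbb3), 6 ligands (Areg, Ereg, Btc, Tgfa, Hbegf and Egf) and 1 inhibitor of the receptors (Errfi1), out of 35976 genes in the deposited tables. Of the 10, 9 were among the 14036 genes with enough counts to test, and Ereg was not. Areg and Egfr were higher in livers with a hepatocyte deletion of Opa1, by 37.0-fold and 2.86-fold. No gene of the set was called lower, and 7 of the 9 tested genes did not pass the test.

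The samples were 5 livers of genotype CTRL, titled WT, and 3 livers of genotype OPA1 LKO (OPA1_LKO below), which carry a knockout of Opa1 in hepatocytes. All 8 samples had the treatment label High Fat Diet, so no liver on another diet was measured. Opa1 encodes a GTPase of mitochondrial inner membrane fusion, and the study asked how liver gene expression differs without it in hepatocytes. The strain, sex and age of the mice, the driver of the deletion, the exons it removes and whether each sample is a separate animal are not given in the labels. The p-values thus measure only how these samples vary, part of which may be technical.

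EGF family ligands are made as membrane proteins, and proteases of the ADAM family release them from the cell surface. A released ligand joins receptors into pairs, whose kinase domains then signal through the RAS and MAP kinase cascade and through PI3 kinase. In liver, Egfr is abundant on hepatocytes and takes part in the regrowth of the organ after tissue loss. Egf, Tgfa and Areg bind Egfr alone, Hbegf, Btc and Ereg also bind the related receptor Erbb4, and Erbb2 has no known ligand and acts as a partner of the other receptors.

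The libraries held 16076404 to 20471271 estimated reads on genes. Levels are given as CPM, read counts scaled to a common library size, and comparisons between genes as TPM, which corrects for transcript length. Opa1 averaged 48.1 ± 6.90 CPM over the CTRL libraries (SD, n = 5) and 31.0 ± 5.52 CPM over the OPA1_LKO libraries (SD, n = 3), with ranges of 39.9 to 57.6 and 24.7 to 34.4 CPM that did not overlap. Its log2 fold change of -0.63 ± 0.17 (SE) missed the threshold at 0.0539 (edgeR's quasi-likelihood test, p adjusted by Benjamini-Hochberg, as for all edgeR values below). Of the 8 fits that leave out a library, Opa1 passed in 1, without CTRL replicate 1, at 0.0272 by edgeR. The adjusted p was highest without OPA1_LKO replicate 1, at 0.236 by edgeR. CTRL replicates 1 and 3 stood apart. In CTRL replicate 1, the apolipoprotein gene Apoe was nearly absent at 134 CPM (at least 20759 CPM elsewhere), Xist stood at 8.13 CPM (at most 0.185 CPM elsewhere), and the summed macrophage markers at 1056 CPM. The labels call it a control, and whether it is one like the other 4 cannot be told from them; it is part of every CTRL mean and test unless left out by name. In CTRL replicate 3, several bile duct markers were far above the other controls, as described below. Ddx3y, on the Y chromosome, was at 7.91 to 26.9 CPM in the 8 libraries. Hepatocyte markers (Alb, Ttr, Apoa1 and 7 others) summed to 64039 to 113114 CPM in CTRL and 77225 to 98206 CPM in OPA1_LKO. In whole-liver RNA, fewer cells of a type and less RNA per cell cannot be told apart.

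In all, 6.03% of the tested genes differed between the groups at an adjusted p under 0.05 and 3.34% were called higher in OPA1_LKO. The groups did not overlap in CPM for 16.4% of the tested genes. In the EGF receptor set, 2 of 9 tested genes were called, both of them higher, and the same 2 did not overlap. The median log2 fold change of the set was 0.04, against -0.03 over all tested genes. With 9 genes, these counts describe the set and were not tested against other genes.

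**Figure D1:**
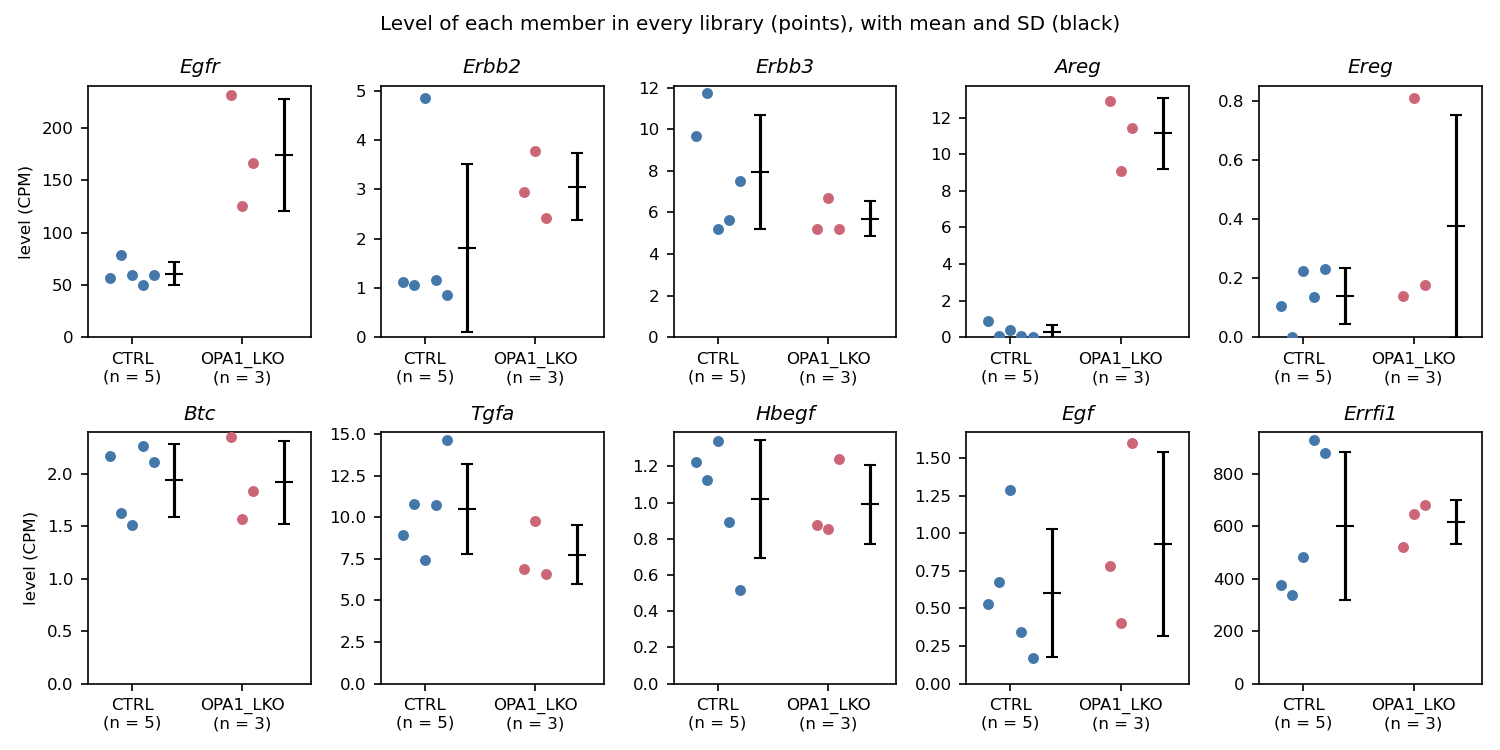
Level in CPM of each of the 10 genes in every library, with CTRL in blue and OPA1_LKO in red, and the mean and SD in black beside each group (linear axes from 0, where the SD bar of Ereg in OPA1_LKO is cut off). Egfr and Areg have no overlap between the groups, and the other 8 genes overlap.

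Egfr, the receptor for which the family is named, lies on chromosome 11 from 16752203 to 16913907 (GRCm38.p6). It was at 56.8, 78.8, 59.7, 49.7 and 59.5 CPM in CTRL replicates 1 to 5. In the OPA1_LKO libraries it was at 231, 126 and 167 CPM. The lowest OPA1_LKO library was thus above the highest CTRL library. The means were 60.9 ± 10.8 CPM (SD, n = 5) and 174 ± 53.3 CPM (SD, n = 3). The log2 fold change was 1.52 ± 0.21 (SE; adjusted p of 0.0038 by edgeR). Egfr passed the same test without each of the 8 libraries in turn, with an adjusted p of at most 0.0214, and of 0.00386 without CTRL replicate 1. With the replicate number as a block Egfr missed the threshold, at a log2 fold change of 1.39 and an adjusted p of 0.0528 by edgeR.

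The annotation gives Egfr transcripts that share their first exons and then part. NM_207655.2 has 28 exons and codes for the whole receptor in 1210 codons. NM_007912.4 has 16 exons and 655 codons, and its product is a shortened receptor that ends before the membrane span and the kinase domain, so that it can bind ligand without signalling. The transcripts share 1926 coding bases (GENCODE M21, GRCm38), after which NM_007912.4 has 39 coding bases of its own and NM_207655.2 has 1704. The sequences below show where they part, as coding strand from 5′ to 3′, with the last 30 shared bases in lower case and the first 39 bases particular to each transcript in capitals.
NM_007912.4: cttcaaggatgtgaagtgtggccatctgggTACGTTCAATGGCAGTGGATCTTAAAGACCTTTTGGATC
NM_207655.2: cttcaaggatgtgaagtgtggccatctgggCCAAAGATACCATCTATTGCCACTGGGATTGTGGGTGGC

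NM_207655.2, the whole receptor, was at 5.68, 10.67, 6.1, 2.46 and 7.64 TPM in CTRL and at 35.23, 12.62 and 21.33 TPM in OPA1_LKO. NM_007912.4, the shortened receptor, was at 15.21, 9.95, 6.44, 11.63 and 6.5 TPM in CTRL and at 27.83, 31.11 and 18.79 TPM in OPA1_LKO. In each transcript all OPA1_LKO libraries lay above all CTRL libraries. The exact two-sided permutation test over 56 divisions of the libraries gave 0.0357 for each, the smallest p it can give, and 0.179 after Benjamini-Hochberg adjustment over 15 transcript comparisons. At this size a call would need 11 of the 15 to reach the smallest p, so the 0 calls say nothing about the transcripts. The shortened receptor took 60.2% ± 16.4 of the Egfr TPM in CTRL (SD, n = 5) and 54.0% ± 14.9 in OPA1_LKO (SD, n = 3), with ranges of 46.0% to 82.5% and 44.1% to 71.1%. A difference in this share did not pass (exact permutation p = 0.429, adjusted 0.804). Reads from the shared exons are divided between the transcripts by estimation, so the split in a given library is less certain than the gene total.

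**Figure D2:**
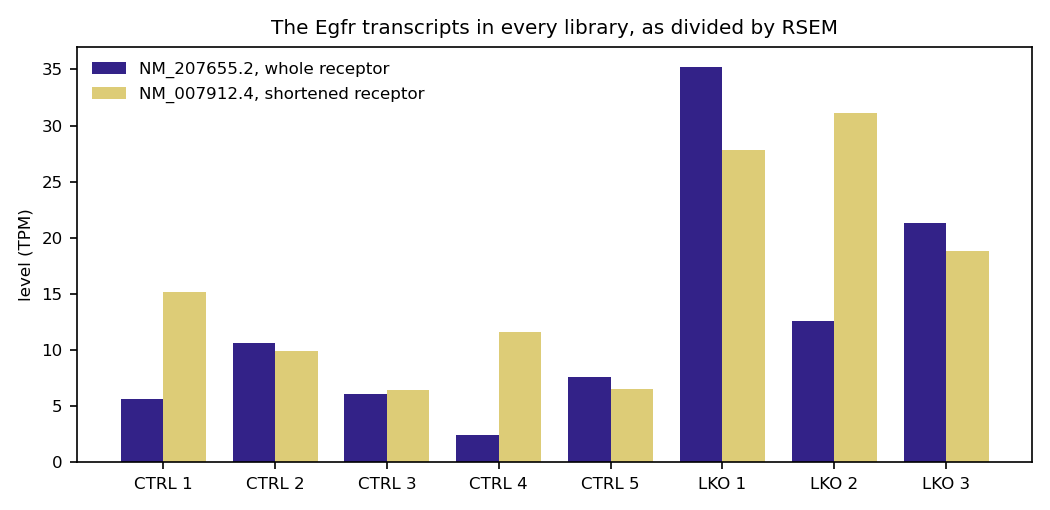
Level in TPM (linear axis) of the Egfr transcripts NM_207655.2 (dark blue) and NM_007912.4 (yellow) in every library, with LKO standing for OPA1_LKO. Both bars are higher in the 3 OPA1_LKO libraries than in any CTRL library, while which of the transcripts is the more abundant differs from library to library within each group.

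Erbb2, the partner receptor (chromosome 11, 98412484 to 98437716), did not pass the test with all libraries and passed it without CTRL replicate 3. It was at 1.12, 1.07, 4.86, 1.17 and 0.859 CPM in CTRL replicates 1 to 5. The OPA1_LKO libraries were at 2.96, 3.78 and 2.43 CPM. Each OPA1_LKO library was thus above 4 of the 5 CTRL libraries and below CTRL replicate 3. The log2 fold change was 0.75 ± 0.55 (SE; adjusted p of 0.447 by edgeR), and it was 1.56 with an adjusted p of 0.0220 without CTRL replicate 3. The adjusted p ran from 0.00866 to 0.653 over the 17 alternatives, lowest without CTRL replicates 1 and 3 together. Leaving out the highest control raises a difference by construction. With any other single library left out, the adjusted p was 0.490 to 0.653 by edgeR.

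Bile duct markers moved with Erbb2 in CTRL replicate 3. Krt19, a keratin of duct cells, was at 22.3 CPM there and at 0.319 to 1.03 CPM in the other CTRL libraries. Epcam, an adhesion protein of duct cells, was at 16.8 CPM there and at 0.506 to 0.892 CPM in the others. Cldn7, a tight junction protein, was at 6.32 CPM there and at most 0.137 CPM in the others. The OPA1_LKO libraries lay above the other controls and below CTRL replicate 3, at 2.13 to 5.67 CPM for Krt19, 5.15 to 10.5 CPM for Epcam and 1.18 to 2.20 CPM for Cldn7. The part of duct cells in the Erbb2 level was not tested.

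Erbb3, a receptor whose own kinase activity is weak and which passes the signal to PI3 kinase, lies on chromosome 10 from 128567523 to 128589635. It was at 9.67, 11.7, 5.20, 5.62 and 7.50 CPM in CTRL, against 5.22, 6.70 and 5.21 CPM in OPA1_LKO. The OPA1_LKO libraries lay within the CTRL range, and the log2 fold change of -0.48 ± 0.28 (SE) did not pass the test (adjusted p of 0.330 by edgeR).

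Areg encodes amphiregulin, a ligand of Egfr alone, and lies on chromosome 5 from 91139599 to 91148432. The estimated counts were 17, 1, 7, 1 and 0 in CTRL replicates 1 to 5 and 280, 202 and 193 in the OPA1_LKO libraries. In CPM these were 0.903, 0.0562, 0.391, 0.0686 and 0 against 12.9, 9.09 and 11.4. Every OPA1_LKO library was above every CTRL library, and among the controls only replicates 1 and 3 held more than 1 count. The 0 in CTRL replicate 5 allows a level of up to 0.172 CPM, the worth of 3 counts. The group means were 0.284 ± 0.379 CPM (SD, n = 5) and 11.1 ± 1.94 CPM (SD, n = 3).

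The log2 fold change of Areg was 5.21 ± 0.67 (SE; adjusted p of 0.00285 by edgeR). Areg passed in all 17 alternatives, with an adjusted p between 7.2e-05 and 0.0218. Its fold change rests on 26 counts in the 5 controls together, against 675 in the 3 OPA1_LKO libraries, and the size moves with the few control counts. It was 6.33 on the log2 scale without CTRL replicate 1, 7.90 without CTRL replicates 1 and 3, and 3.36 as a difference of log2(TPM + 1), a scale that shrinks the change of low genes.

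The promoter of Areg holds a cyclic AMP response element, the palindrome TGACGTCA bound by CREB and related factors, from 61 to 54 bases before the start. Errfi1, which did not pass the test, holds the same letters from 51 to 44 bases before the start of its second annotated promoter. Of the 32851 RefSeq promoter windows of the same length (GRCm38.p6), 1.79% hold TGACGTCA. The 250 bases before each start are printed from 5′ to 3′ on the plus strand, with this element in capitals, because it is the only searched element that Areg holds.
Areg, chr5:91139349-91139598: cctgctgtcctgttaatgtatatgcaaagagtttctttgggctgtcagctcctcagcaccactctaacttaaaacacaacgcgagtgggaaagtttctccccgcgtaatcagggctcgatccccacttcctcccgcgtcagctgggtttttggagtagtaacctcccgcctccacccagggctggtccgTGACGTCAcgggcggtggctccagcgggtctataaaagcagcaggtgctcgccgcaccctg
Errfi1, chr4:150854820-150855069: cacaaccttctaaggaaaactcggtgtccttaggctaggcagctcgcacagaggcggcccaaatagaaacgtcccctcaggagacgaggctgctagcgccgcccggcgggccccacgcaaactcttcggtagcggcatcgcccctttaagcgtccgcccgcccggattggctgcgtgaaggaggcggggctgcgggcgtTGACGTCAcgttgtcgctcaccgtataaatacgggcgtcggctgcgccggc

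Both strands of the windows were searched for these letters, for the AP-1 letters TGANTCA, the ATF4 composite letters TGATGNAA and the TEAD letters GGAATG. Windows were found for 7 of the 10 genes, 9 windows in all; Erbb3, Ereg and Hbegf have none here. GGAATG, which 14.7% of all windows hold, was in the Erbb2 window and in the first Errfi1 window. TGANTCA (7.81% of all windows) and TGATGNAA (3.97%) were in none of the 9. A match of letters is a description of the sequence and no measure of binding.

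Areg lies in a cluster of EGF family ligand genes on chromosome 5, in the order Epgn, Ereg, Areg and Btc. The cluster spans 375478 bases, with 45949 bases between Ereg and Areg and 208828 between Areg and Btc. Ereg, which encodes epiregulin, lies from 91074617 to 91093649. It had 2, 0, 4, 2 and 4 counts in CTRL and 3, 18 and 3 counts in OPA1_LKO, too few for the test. OPA1_LKO replicate 2, at 0.810 CPM, was above the other 7 libraries, which reached at most 0.229 CPM. Btc encodes betacellulin and lies from 91357261 to 91402994. It was at 2.18, 1.63, 1.51, 2.26 and 2.12 CPM in CTRL, against 2.35, 1.57 and 1.83 CPM in OPA1_LKO. The Btc groups overlapped, with a log2 fold change of -0.01 ± 0.28 (SE) and an adjusted p of 0.986 by edgeR. The sign of this value turned under several alternatives. Epgn was not tested, for lack of counts. Areg and Btc were thus the cluster genes with a test, and Areg passed it.

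Tgfa encodes transforming growth factor alpha, a ligand that hepatocytes make during regrowth, and lies on chromosome 6 from 86195038 to 86275744. It was at 8.92, 10.8, 7.44, 10.8 and 14.7 CPM in CTRL, against 6.88, 9.80 and 6.57 CPM in OPA1_LKO. The groups overlapped, since OPA1_LKO replicate 2 was above CTRL replicates 1 and 3. Its log2 fold change of -0.44 ± 0.24 (SE) did not pass (adjusted p of 0.291 by edgeR).

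Hbegf encodes heparin-binding EGF-like growth factor (chromosome 18, 36504927 to 36515805). It was at 1.22, 1.12, 1.34, 0.892 and 0.516 CPM in CTRL, against 0.877, 0.855 and 1.24 CPM in OPA1_LKO, all within the CTRL range. The log2 fold change was -0.05 ± 0.38 (SE; adjusted p of 0.953 by edgeR), and its sign turned under several alternatives. Egf itself, which is made mainly outside the liver (chromosome 3, 129677574 to 129755322), was at 0.531, 0.674, 1.29, 0.343 and 0.172 CPM in CTRL and 0.785, 0.405 and 1.60 CPM in OPA1_LKO. These overlapped as well, with a log2 fold change of 0.59 ± 0.62 (SE) and an adjusted p of 0.600 by edgeR. The SE of Hbegf and Egf is wide at these levels, and a p that misses the threshold does not show that their levels are alike.

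Per transcript length, the ligand that ranked first was not the same in the groups. Tgfa ranked first among the 6 ligands in 5 of 5 CTRL libraries and Areg in 3 of 3 OPA1_LKO libraries. The summed ligand level was 3.16 to 5.56 TPM in CTRL (median 4.23) and 14.42 to 18.18 TPM in OPA1_LKO. Areg made up 0% to 19.2% of this sum in CTRL (median 1.76%), highest in replicate 1, and 70.9% to 79.7% in OPA1_LKO. The share of Tgfa was 45.9% to 74.8% in CTRL and 10.2% to 18.4% in OPA1_LKO, and that of Btc 15.2% to 21.4% and 4.78% to 5.67%. Shares of a sum are tied to each other, and the TPM of Tgfa itself, at 2.46 ± 0.717 and 2.03 ± 0.599, overlapped between the groups.

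**Figure D3:**
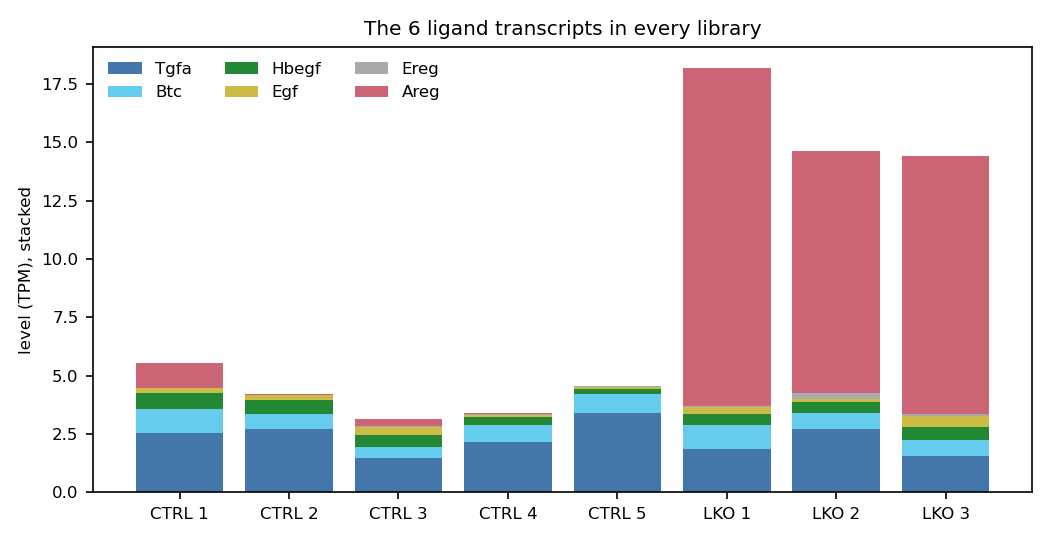
Level in TPM of the 6 ligand transcripts, stacked, in every library (linear axis, LKO standing for OPA1_LKO). Stacks reach 3.16 to 5.56 TPM in CTRL, where Tgfa is the largest block, and 14.42 to 18.18 TPM in OPA1_LKO, where Areg is.

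Among the receptors, Egfr led in every library. The summed level of Egfr, Erbb2 and Erbb3 was 14.58 to 24.32 TPM in CTRL and 42.03 to 65.4 TPM in OPA1_LKO. Egfr was 85.1% to 90.4% of the sum in CTRL and 93.5% to 96.4% in OPA1_LKO. Erbb3 took 8.02% to 13.9% and 2.46% to 4.49%, and Erbb2 took 0.991% to 5.97% and 1.12% to 2.01%. In mean CTRL TPM the 10 genes were ordered Errfi1 (206), Egfr (16.5), Tgfa (2.46), Erbb3 (2.19), Btc (0.736), Hbegf (0.472), Erbb2 (0.358), Areg (0.302), Egf (0.18) and Ereg (0.034). The CTRL libraries of Errfi1 and Egfr did not overlap with each other or with any lower gene. From Tgfa to Ereg, each neighbour in this order overlapped with the next in its range over the CTRL libraries, apart from Erbb3 and Btc.

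Errfi1 encodes MIG6, a cytoplasmic protein that binds the Egfr kinase and blocks it, and lies on chromosome 4 from 150853796 to 150868889. It was at 377, 337, 484, 927 and 880.2 CPM in CTRL, against 521, 649 and 682 CPM in OPA1_LKO. The CTRL libraries thus fell below and above all 3 OPA1_LKO libraries, with replicates 1, 2 and 3 low and replicates 4 and 5 high. The means were 601 ± 282 CPM (SD, n = 5) and 617 ± 84.9 CPM (SD, n = 3), and the log2 fold change was 0.04 ± 0.34 (SE; adjusted p of 0.959 by edgeR). Its sign turned under several alternatives. The main Errfi1 transcript, NM_133753.1, took 77.7% ± 11.2 of the gene in CTRL and 76.9% ± 7.77 in OPA1_LKO (SD, n = 5 and 3).

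The other genes of the pathway were grouped in 7 lists by role, with 88 genes in the table and 81 tested. Of these, 4 were called higher and 2 lower, with a median log2 fold change of -0.12. This share, 7.41%, is near the 6.03% called over all tested genes. The count moved with single libraries, as did that over all genes. Without CTRL replicate 1 it was 9 higher and 4 lower, without OPA1_LKO replicate 1 it was 1 and 0, and without OPA1_LKO replicate 3 it was 2 and 0. The calls over all genes in these fits were 1701, 198 and 231. Without CTRL replicates 1 and 3 together it was 10 and 14.

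Among the remaining receptor and ligands of the family, 0 of 3 tested genes were called. Nrg1, which encodes neuregulin 1, a ligand of Erbb3 and Erbb4, was at 5.68, 0.506, 1.51, 0.206 and 0.974 CPM in CTRL, against 10.3, 3.24 and 6.75 CPM in OPA1_LKO. CTRL replicate 1 overlapped with the OPA1_LKO libraries and the other controls did not, and the log2 fold change was 1.90 ± 0.77 (SE; adjusted p of 0.171 by edgeR). Without CTRL replicate 1 the Nrg1 value was 3.04, with an adjusted p of 0.00846 by edgeR. This library also stood apart in Apoe, Xist and macrophage markers. Nrg1 passed in 1 of the 8 fits that leave out a library, with an adjusted p of up to 0.485 by edgeR. Erbb4, the other receptor of the family, had a log2 fold change of -1.02 ± 0.49 (SE; adjusted p of 0.237 by edgeR). Epgn, Nrg2 and Nrg3 had too few counts to test.

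Of the genes that release ligands, 0 of 7 tested were called, with a median log2 fold change of -0.12. Timp3, which inhibits the protease Adam17, came nearest, with group means of 14.0 ± 1.45 and 33.0 ± 23.1 CPM (SD, n = 5 and 3; adjusted p of 0.0553 by edgeR, and 0.0426 without CTRL replicate 1). OPA1_LKO replicate 2 held most of this, at 59.7 CPM. Rhbdf1, which encodes iRhom1, a partner that brings Adam17 to the cell surface, had a log2 fold change of 0.67 ± 0.24 (SE; adjusted p of 0.132 by edgeR, and 0.0430 without CTRL replicate 1). Timp3 and Rhbdf1 each passed in 1 of the 8 fits that leave out a library. With a library left out, the adjusted p by edgeR reached 0.117 for Timp3 and 0.362 for Rhbdf1.

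The adaptors and phosphatases that join the receptors had 0 of 18 called and a median of -0.09. Their genes of smallest p were Sos1, which activates RAS (-0.42 ± 0.14; adjusted p of 0.116 by edgeR), and Plcg1, a phospholipase (-0.53 ± 0.19; adjusted p of 0.132 by edgeR). In the RAS and MAP kinase core 0 of 13 were called, with a median of -0.19, of which Rps6ka1, a kinase downstream of ERK, came nearest at -0.90 ± 0.24 (adjusted p of 0.0573 by edgeR, 0.0499 without CTRL replicate 1 and 0.0446 without CTRL replicate 4). All these values are log2 fold changes with their SE. Rps6ka1 passed in 2 of the 8 fits that leave out a library. Its adjusted p rose to 0.208 by edgeR without OPA1_LKO replicate 3.

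In the PI3 kinase and STAT arm 1 of 11 was called, and the median was -0.35. Pik3r1, the regulatory subunit of PI3 kinase, was lower in OPA1_LKO. It was at 49.0, 50.6, 50.04, 51.4 and 64.2 CPM in CTRL, against 31.9, 41.2 and 30.6 CPM in OPA1_LKO, with no overlap. The log2 fold change was -0.62 ± 0.15 (SE; adjusted p of 0.0423 by edgeR). It passed in 2 of the 8 fits that leave out a library, where the adjusted p rose to between 0.0663 and 0.197 without CTRL replicates 2, 3, 4 or 5 or OPA1_LKO replicates 1 or 3. The log2 fold change in these 6 fits was -0.64 to -0.51. Over all 17 alternatives Pik3r1 passed in 6. By edgeR it also missed with upper-quartile factors (adjusted p of 0.0638), without the low-count filter (0.0769) and with the replicate block (0.0965). By limma it missed on the log2(TPM + 1) and log2(TPM + 0.1) scales (adjusted p of 0.308 and 0.304). The log2 fold change in these further fits was -0.60 to -0.40.

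Of the feedback inhibitors 1 of 16 was called, and the median was -0.14. Spry1, an inhibitor of RAS activation that growth factor signals induce, was at 3.72, 3.15, 4.42, 3.43 and 3.38 CPM in CTRL, against 7.80, 8.10 and 10.1 CPM in OPA1_LKO. All OPA1_LKO libraries were above all controls, with a log2 fold change of 1.26 ± 0.18 (SE) and an adjusted p of 0.0046 by edgeR. Spry1 passed in all 17 alternatives. The next smallest p in this list were those of Dusp6 and Spry2, which went opposite ways and did not pass. Dusp6 was at -0.56 ± 0.16 (adjusted p of 0.0661 by edgeR) and Spry2 at 1.18 ± 0.35 (0.0765), as log2 fold changes with SE.

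Of 13 tested genes known to respond to ERK, 3 were higher and 1 was lower, and the median was 0.44. Egr1, an immediate early transcription factor, was at 17.1, 6.74, 9.95, 4.66 and 8.94 CPM in CTRL, against 51.4, 22.8 and 39.4 CPM in OPA1_LKO (log2 fold change 1.99 ± 0.37; adjusted p of 0.0153 by edgeR). Ccnd1, which encodes cyclin D1 of the early cell cycle, was at 15.9, 12.5, 9.23, 7.89 and 21.1 CPM and at 79.1, 38.7 and 31.9 CPM (1.90 ± 0.35; adjusted p of 0.0153 by edgeR). Etv4, a transcription factor, went from 0.280 ± 0.0914 to 1.32 ± 0.421 CPM (2.21 ± 0.40; adjusted p of 0.0142 by edgeR). The groups did not overlap in any of these. Phlda1 went the other way, from 59.9 ± 27.9 to 21.4 ± 2.04 CPM (-1.48 ± 0.34; adjusted p of 0.0325 by edgeR).

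Without OPA1_LKO replicate 1, none of these 4 passed, at log2 fold changes of 1.40 for Ccnd1, 1.71 for Egr1, 2.25 for Etv4 and -1.41 for Phlda1. The adjusted p by edgeR was then 0.0824 for Ccnd1, 0.0857 for Egr1, 0.0711 for Etv4 and 0.155 for Phlda1. Without OPA1_LKO replicate 3 the adjusted p was 0.0614 for Egr1 (1.98), 0.0776 for Etv4 (1.97) and 0.123 for Phlda1 (-1.4989), and without OPA1_LKO replicate 2 it was 0.0788 for Phlda1 (-1.52), with log2 fold changes in brackets. The calls over all genes fell in these fits too, as given above. On the log2(TPM + 1) scale, 5 pathway genes were higher and 0 were lower. Phlda1 missed there and on the log2(TPM + 0.1) scale, with an adjusted p of 0.0973 and 0.0843 by limma. With the replicate block, Phlda1 and Etv4 missed at 0.0768 and 0.0731 by edgeR. Over all 17 alternatives Ccnd1 passed in 16, Egr1 in 15, Etv4 in 14 and Phlda1 in 11.

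**Figure D4:**
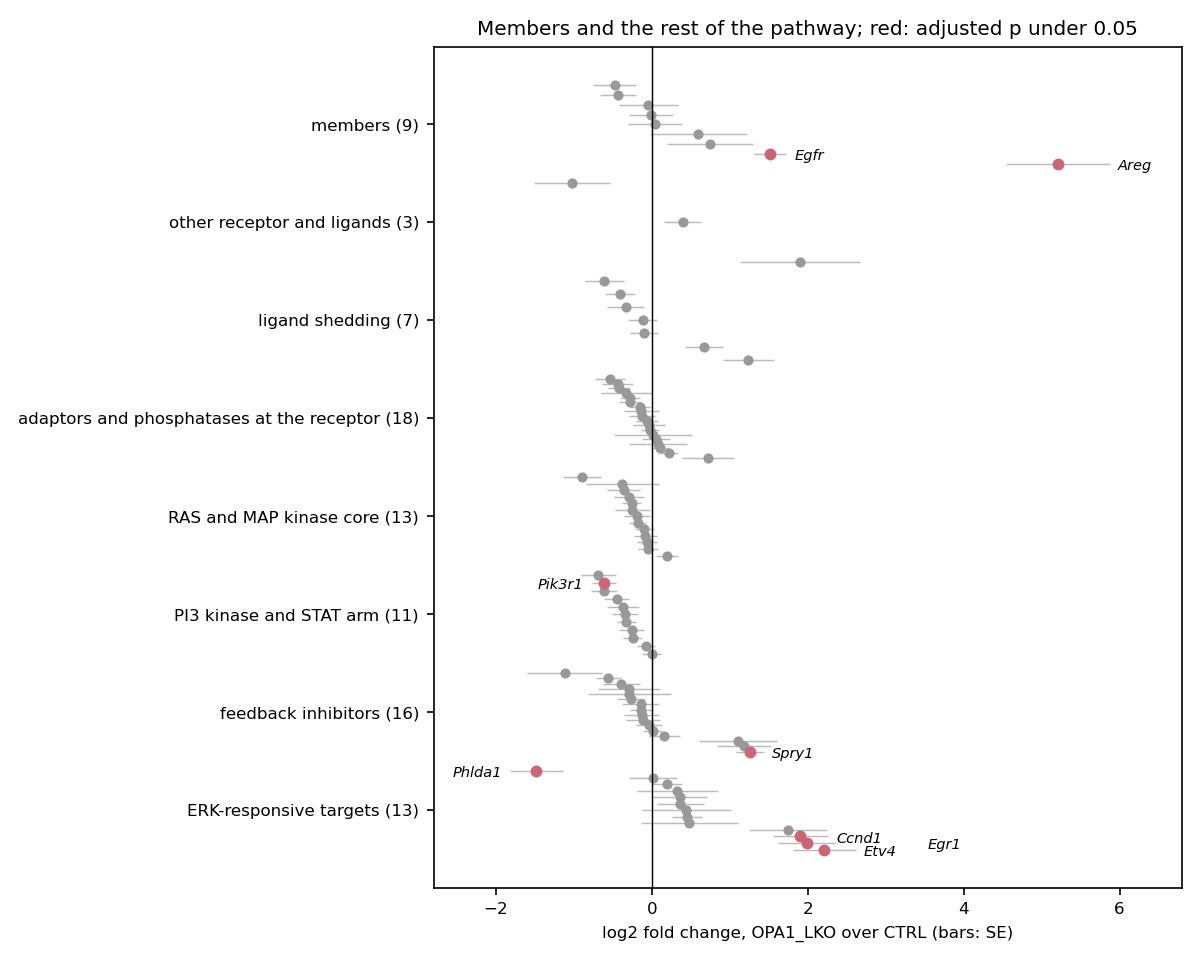
Log2 fold change (OPA1_LKO over CTRL, bars showing SE) of each tested gene, by list, with the number tested in brackets and genes of adjusted p under 0.05 by edgeR in red. Areg stands at 5.21 and Egfr at 1.52, while 6 of the 81 other pathway genes are red.

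Several markers of bile duct cells were higher in OPA1_LKO beside Areg and Egfr. Of 10 duct markers, 9 were tested and 4 were called higher. Spp1, which encodes osteopontin, was at 33.1, 13.9, 20.97, 19.0 and 26.5 CPM in CTRL, against 164, 176 and 122 CPM in OPA1_LKO (log2 fold change 2.76 ± 0.25; adjusted p of 0.0006 by edgeR). The other calls were Sox9 (1.72 ± 0.32), Krt7 (2.04 ± 0.40) and Muc1 (2.02 ± 0.39), with an adjusted p of 0.0161 to 0.0192 by edgeR. The summed duct markers were 35.5 to 89.9 CPM in CTRL, highest in replicate 3, and 167 to 222 CPM in OPA1_LKO. Without CTRL replicate 3, 8 duct markers were called higher. With each OPA1_LKO library left out in turn, 1 or 2 were, and Spp1 passed in all 17 alternatives. In CTRL replicate 3, where Krt19, Epcam and Cldn7 were highest, Areg was at 0.391 CPM. This was below CTRL replicate 1 (0.903 CPM) and above CTRL replicates 2, 4 and 5 (0.0562, 0.0686 and 0 CPM). The OPA1_LKO libraries were at 9.09 to 12.9 CPM. The part of duct cells in the Areg and Egfr levels was not tested.

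**Figure D5:**
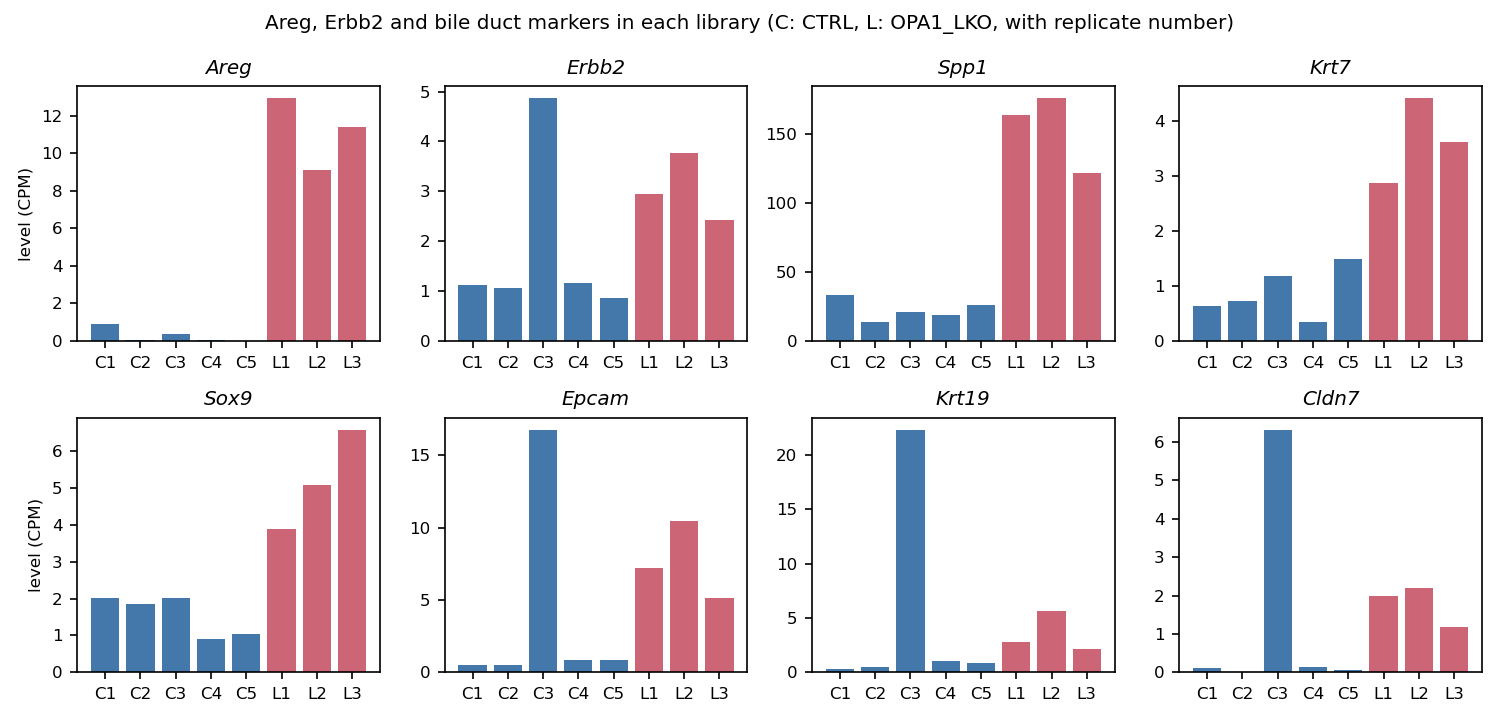
Level in CPM (linear axes from 0) of Areg, Erbb2 and 6 bile duct markers in each library, with C for CTRL and L for OPA1_LKO. CTRL replicate 3 has the highest bar for Erbb2, Epcam, Krt19 and Cldn7, and the OPA1_LKO libraries have the highest bars for Areg, Spp1, Krt7 and Sox9.

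Of the macrophage markers 0 of 10 were called, with sums of 208 to 1056 CPM in CTRL and 198 to 329 CPM in OPA1_LKO. Of the T cell and innate lymphoid markers, which include cells that make Areg in other tissues, 1 of 7 was called (Il7r, 2.05 ± 0.46; adjusted p of 0.0306 by edgeR, and at most 0.143 with a library left out), with sums of 3.57 to 8.39 and 6.65 to 11.2 CPM. Mast cell and basophil markers summed to 2.91 to 4.93 and 2.37 to 5.76 CPM, with 0 of 1 called. Stellate and endothelial markers had 0 of 8 called each, with median log2 fold changes of 0.56 and 0.10. The stellate sums were 121 to 162 CPM in CTRL and 145 to 274 CPM in OPA1_LKO. The endothelial sums were 97.3 to 155 and 81.9 to 173 CPM. OPA1_LKO replicate 2 had the highest sum in both. Hepatocyte markers had 1 of 10 called, Tat (1.61 ± 0.26; adjusted p of 0.0095 by edgeR). Kidney tubule markers, of an organ that makes Egf, were at most 0.172 CPM in sum, and Slc12a1 and Kap were at 0.

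The genes whose log2 CPM followed Egfr most closely over the 8 libraries, among 11699 candidates, included Bzw2 (Pearson r = 0.984) and Rpl23 (0.983). Those nearest to Areg were Chrnb1 (0.989), Vill (0.984) and Asns (0.983), the enzyme that makes asparagine. Mean levels in CTRL and OPA1_LKO were 0.968 ± 0.896 and 24.2 ± 12.3 CPM for Asns and 6.35 ± 0.652 and 13.2 ± 3.25 CPM for Bzw2 (SD, n = 5 and 3). The 8 points fall into the 2 groups, which differ in each of these genes, and the r values carry no test.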

How the data were processed

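RNA of whole liver was sequenced in 5 CTRL and 3 OPA1_LKO samples as stranded mRNA libraries, per the labels' protocols. Alignment and quantification tools in the submitters' processing notes are STAR, StringTie, RSEM and MultiQC, without versions, on build mm10, and no annotation release is stated. The authors deposited RSEM expected counts, not normalised, and TPM, per gene and per transcript. Gene expected counts were rounded, filtered with filterByExpr (count minimum 10, total minimum 15), scaled by TMM and tested with edgeR 4.0.16 in R 4.3.3 (glmQLFit and glmQLFTest, a quasi-likelihood test on group alone). P-values were adjusted by Benjamini-Hochberg over 14036 genes and called under 0.05. The SE of a log2 fold change is its size over the root of the F statistic. The alternatives used DESeq2 1.42.0, limma 3.58.1, other scaling, no filter, a replicate block and left-out libraries. Transcripts with a mean of at least 0.1 TPM were compared by exact permutation. The procedure was tested on simulated counts, where it recovered 2% of 1.5-fold, 40% of 2-fold and 92% of 4-fold changes. It called 2 of 13836 unchanged genes there. A gene that was not called may thus still differ by 2-fold or less. Library totals of 16076404 to 20471271 leave low genes such as Ereg with few counts, which limits their precision.

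The members and lists were chosen with earlier results of these data known. The rule for named genes took the members, in each pathway list the called genes (at most 4) or else the 2 of smallest p, in each marker list at most 3 genes by mean level, and the 3 genes nearest each called member. A few genes taken by it are not reported here. Apoe, Xist, Ddx3y, Sox9, Krt7, Muc1, Krt19, Cldn7, Tat, Il7r, Dusp6, Spry2 and the kidney genes are outside this rule. They were chosen once their values had been seen. Same-group libraries differed by more than sampling noise, so none was counted as a copy of another. This does not show that they come from separate animals.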

Additional observations from a re-analysis of the deposited data

Results flagged for a closer look

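Among the 5 CTRL libraries, 3 of the 33 sets of values examined held a library far from the others, where chance alone gives about 1 set in 20. Erbb2 was at 4.86 CPM in CTRL replicate 3, with the next control at 1.17 CPM. The share of Erbb2 among the receptors was 5.97% in the same library. This flag rests on the same Erbb2 reads, and Krt19, Epcam and Cldn7 were highest there too. The summed macrophage markers were at 1056 CPM in CTRL replicate 1, with the next control at 425 CPM, and 0 of the 10 macrophage markers were called between the groups. CTRL replicate 1 also held the highest control level of Areg, at 0.903 CPM, and of Nrg1, at 5.68 CPM.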

How the results depend on the processing

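Areg and Egfr kept their direction in all 17 alternatives, and Areg its call in all 17; Egfr lost it with the replicate number as a block (1.39, adjusted p of 0.0528 by edgeR). In that replicate block fit 1 member, 3 pathway genes and 367 of all genes were called. The labels share numbers 1 to 3 between the groups. Same-numbered libraries correlated at 0.0720, 0.0537 and 0.175 in their deviations, and differently numbered ones at -0.19 to 0.174. These values cannot exclude a pairing, but the numbers were not taken to pair samples. Without each library in turn, the counts called ran from 2 to 3 members, 1 to 13 pathway genes, 3 to 10 markers and 198 to 1701 of all genes (2, 6, 6 and 846 with all libraries). Without CTRL replicates 1 and 3 they were 3, 24, 16 and 2919. DESeq2 called 13 pathway genes and 1692 of all genes (841 higher, 851 lower, against 469 and 377 by edgeR). Limma on log2(TPM + 1) called 477 (394 higher, 83 lower) and on log2(TPM + 0.1) 494 (392 and 102), scales on which the median log2 fold change of all genes was 0.0804 and 0.14, against -0.03 by edgeR. Upper-quartile scaling called 547 higher and 270 lower. None of these log2 fold changes passed the test: Btc was at 0.0714 with upper-quartile factors, 0.0595 and 0.13 on the TPM scales and 0.11 with the block, and at -0.19 to 0.11 with a library left out. Hbegf was at 0.0269 with upper-quartile factors, 0.0413 and 0.14 on the TPM scales and 0.23 without CTRL replicates 1 and 3, and at -0.22 to 0.0856 with a library left out. Egf ran from -0.0031 to 1.08 and Errfi1 from -0.11 to 0.27 with a library left out, and Errfi1 was at -0.21 without CTRL replicates 1 and 3, 0.63 with the block (adjusted p of 0.0861 by edgeR) and 0.32 on each TPM scale. The cause of these turns was not tested. The transcript tests cannot show stability, since with a library left out their smallest p is 0.0571 or 0.0952 and no call was possible. Low counts limit what can be said of Ereg, Egf, Hbegf and the controls of Areg, and 3 OPA1_LKO libraries limit the transcript tests to a smallest p of 0.0357. CTRL replicates 1 and 3 together were chosen for omission after the data were seen.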
